A study of Mus musculus with 108 samples.

Results

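The 36 genes described here are the nuclear genes of mouse mitochondrial complex I whose symbols read Nduf, then one of the letters a, b, c, s or v, then a number. They were picked by symbol from the 55573 genes counted in single mouse oocytes, and all 36 are annotated as protein coding. Assembly factors, genes with a longer suffix and pseudogenes were left out by the rule. The rule also takes in Ndufa4, whose product is now placed in complex IV, so the members are 35 complex I genes and Ndufa4. The rule used no measured value.

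Some females lacked Exosc10 in their oocytes only (cKO, an oocyte-specific knockout) and the others served as controls. Exosc10 encodes a ribonuclease of the nuclear RNA exosome. Each library was 1 oocyte, and the female it came from was taken as the replicate, so 86 libraries gave 23 females. PolyA libraries, made from RNA caught on oligo(dT) beads, came from GV oocytes (germinal vesicle stage, before meiosis resumes; 7 control oocytes from 2 females and 15 cKO oocytes from 2 females), GV3h oocytes (3 hours in culture; 8 from 3 and 11 from 3) and MII eggs taken from the oviduct (8 from 3 and 15 from 3). RiboMinus libraries, made with random hexamers and without a step that selects poly(A) tails, came from GV oocytes (8 control oocytes from 2 females and 7 cKO oocytes from 2 females) and MII eggs (3 control eggs from 1 female and 4 cKO eggs from 2 females). The driver of the deletion, the strain and the age are not given in the sources used here.

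Complex I takes electrons from NADH, passes them along a chain of iron-sulfur clusters to ubiquinone and pumps protons across the inner mitochondrial membrane. Its peripheral arm has an N module, which oxidises NADH, and a Q module, which reduces ubiquinone. Its membrane arm holds the pumps, and its core proteins there come from the mitochondrial genome. The growing oocyte stores mRNA and stops transcription before it resumes meiosis. From then on, mRNAs in the oocyte are regulated by translation, decay and changes in the length of their poly(A) tails.

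Total gene counts per oocyte ranged from 4638718 to 8735914 in polyA libraries and from 12319658 to 62675760 in RiboMinus libraries. Exosc10 was called lower in cKO than in control oocytes in all 5 genotype comparisons: polyA oocytes held at most 4.44 CPM (a gene's count scaled by the total gene count of its library) in cKO and at least 43.0 CPM in control, and RiboMinus oocytes at most 8.29 and at least 84.9 CPM. The oocyte markers (10 genes) were all detected in every group, with a summed level of 5579.5 to 26901 CPM. The granulosa and cumulus markers (12 genes) summed to 67.8 to 227 CPM per oocyte, and Foxl2, Fshr, Fst and Inha among them were at 0 in every polyA MII control egg. Spike-in counts were not analysed here, so every level is relative to the RNA sequenced in that library. A lower RNA content per oocyte therefore cannot be told apart from an even change of all genes.

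In GV oocytes the members were among the better represented genes of the polyA libraries. Levels between genes are compared only per kilobase of 1 annotated protein-coding transcript per gene, from counts over library totals without TMM scaling. In polyA control GV oocytes the members had a median of 77.8 CPM per kilobase. Of the 36, 24 lay above percentile 90 of the 14561 tested genes that had such a transcript. The lowest was Ndufs1, the largest core subunit of the N module, at 9.76 CPM per kilobase (10.3 and 9.26 in the 2 females). The highest was Ndufa2, a small accessory subunit of the same module, at 356 CPM per kilobase (319.3 and 392.4). In RiboMinus control GV oocytes the median was 16.2 CPM per kilobase, and only 3 members lay above percentile 90 there. Ndufb11, an accessory subunit of the membrane arm, was highest in the RiboMinus libraries at 64.8 CPM per kilobase, and Ndufb4, of the same arm, was lowest at 2.50.

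The member mRNAs are short, and the stretch after the stop codon is shorter still. The median annotated 3′ untranslated region was 124.5 bases, against 910 bases over 14561 genes tested in the polyA libraries. It was at most 300 bases in 30 of the 36 members. Most members, 27 of 36 (75%), had a polyadenylation hexamer, AATAAA or ATTAAA, within 40 bases of the annotated end, beside 74% of the 14561 genes. A cytoplasmic polyadenylation element, searched as TTTTAT or TTTTAAT on the transcript's strand and starting within 100 bases before the hexamer, was found in 2 members (5.56%) and in 14.7% of the 14561 genes. A TTTTAAT that overlaps the hexamer was counted. Those 2 were Ndufc2 and Ndufs4. Ndufa10, an accessory subunit of the membrane arm with a nucleoside-kinase fold, was among the 6 members with a longer one. The windows below show the 3′ end of the member with the largest fall at meiotic maturation, of the one member that rose, of the member with the largest rise in cKO eggs, and of both members with the element. Each is from GENCODE M21 transcripts on GRCm38, and capitals mark the hexamer nearest the annotated end or, in Ndufc2 and Ndufs4, the element. The Ndufb3 window also holds AATAAA just before its ATTAAA, in lower case.
Ndufs7 (chr10:80256756-80256785, plus strand): atcccagaatcccttgtgAATAAAcccatc
Ndufa10 (chr1:92439026-92439055, minus strand): taacttgcatttaacttaATTAAAacttaa
Ndufb3 (chr1:58595928-58595957, plus strand): ttgtaactcttaaataaaATTAAAaagaaa
Ndufc2 (chr7:97407713-97407742, plus strand): atattttctgagTTTTATgggattttctgt
Ndufs4 (chr13:114287835-114287864, minus strand): ccaatggagatcTTTTATtcttaggaaata

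Summed over the 36 members, the share of gene counts was lower at MII than at GV in the polyA libraries and not in the RiboMinus control libraries. In polyA control oocytes it was 0.278% and 0.313% in the 2 GV females and 0.0648%, 0.0518% and 0.0455% in the 3 MII females. In polyA cKO oocytes it was 0.291% and 0.363% at GV and 0.0768%, 0.0882% and 0.0776% at MII. The GV and MII females did not overlap in either genotype, and each MII cKO female was above each MII control female. RiboMinus shares were 0.0673% and 0.0793% in GV controls, 0.0695% and 0.0697% in GV cKO oocytes, 0.112% in the single MII control female, and 0.0559% and 0.0883% in the 2 MII cKO females. The MII control female was the highest RiboMinus female and the MII cKO female V1166 the lowest. These sums carry no test and weigh abundant members most.

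**Figure D1:**
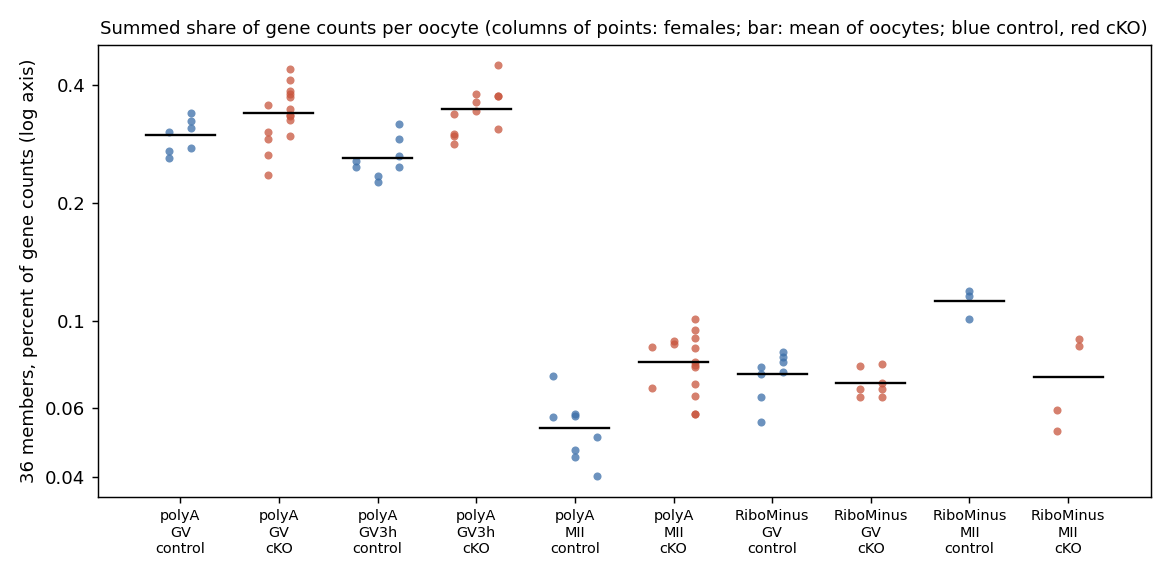
Share of all gene counts taken by the 36 members (percent, log axis) for each oocyte in the 10 groups of library type, stage and genotype; points in a column are oocytes of 1 female, bars are means over oocytes, controls are blue and cKO oocytes red. PolyA shares were 0.260% to 0.339% in GV controls and 0.0403% to 0.0726% in MII controls, while no RiboMinus oocyte was above 0.120%.

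Among comparisons within the polyA libraries, that of GV oocytes with MII eggs called the most members. In polyA control oocytes, 33 of the 36 members fell from GV to MII and 1 rose, where 25.7% of the 19242 genes tested fell and 16.8% rose. Here and below a gene was called, that is rose or fell, when its Benjamini-Hochberg adjusted p from edgeR's quasi-likelihood test over all genes was under 0.05, and changes are fitted log2 fold changes ± SE. The median change of the members was -3.50, against -0.26 over all genes tested. In polyA cKO oocytes 31 fell and 1 rose, where 26.6% of genes fell and 18.1% rose, with a median of -2.38 against -0.33. All 34 calls in controls and all 32 in cKO oocytes were made again when any 1 female was left out.

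Ndufs7 (chr10:80249121-80256794, plus strand, GRCm38), the core Q-module subunit that carries the last iron-sulfur cluster before ubiquinone, had the largest fall in controls. Its level was 97.8 and 98.4 CPM in the 2 GV control females and 0.867, 0.707 and 1.25 CPM in the 3 MII control females. In cKO oocytes it was 107.8 and 159.8 CPM at GV and 5.92, 3.51 and 5.49 CPM at MII. The MII females lay far below the GV females in both genotypes. The fall was 6.75 ± 0.28 on the log2 scale in controls (change -6.75, adjusted p = 2.03e-10) and 4.74 ± 0.24 in cKO oocytes (change -4.74, adjusted p = 2.91e-09).

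Ndufa7, an accessory subunit of the peripheral arm, went from 63.8 and 80.9 CPM at GV to 0.26, 1.12 and 0.914 CPM at MII in control females, a change of -6.45 ± 0.42. The MII values rest on 3, 27 and 11 counts. Ndufb7, an accessory subunit on the intermembrane-space side of the membrane arm, went from 39.1 and 52.6 CPM to 0.693, 1.29 and 0.166 CPM, a change of -5.85 ± 0.46. In cKO oocytes the largest falls were those of Ndufb7 (-4.86 ± 0.43), Ndufs7 and Ndufb4 (-4.62 ± 0.32). Ndufb7 went from 38.4 and 41.9 CPM in GV cKO females to 1.28, 0.821 and 1.80 CPM in MII cKO females. Ndufb4, an accessory subunit of the distal membrane arm, went from 21.7 and 36.4 CPM to 1.36, 1.19 and 1.05 CPM. GV and MII females were far apart for each of these genes.

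The fall reached every module. In controls it was called in 9 of 10 N-module genes (median -4.10), 6 of 6 Q-module genes (median -3.58), 8 of 9 genes of the proximal membrane arm (median -3.44) and 10 of 10 of the distal membrane arm (median -3.56). Of the 7 nuclear core subunits, which are the parts shared with the bacterial enzyme, 6 fell.

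The members outside this pattern were Ndufa10, Ndufs1 and Ndufa4. Ndufa10 (chr1:92439010-92473860, minus strand) was the only member called higher. It was at 113.3 and 103.9 CPM in GV control females and at 270.7, 205.8 and 223.7 CPM in MII control females, and at 114.4 and 112.7 against 265.2, 223.3 and 241.1 CPM in cKO females. Every MII female was above every GV female. The change was 1.10 ± 0.15 in each genotype (adjusted p = 2.16e-05 in controls and 2.39e-05 in cKO oocytes). Ndufs1 was at 25.2 and 23.6 CPM in GV control females and at 17.4, 7.45 and 23.9 CPM in MII control females. Those groups overlapped, and its change of -0.59 ± 0.37 was not called (adjusted p = 0.211). Ndufa4, the complex IV subunit, was not called either, at -0.21 ± 0.26 in controls and 0.29 ± 0.26 in cKO oocytes. In cKO oocytes Ndufb3 and Ndufs5 were also not called.

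**Figure D2:**
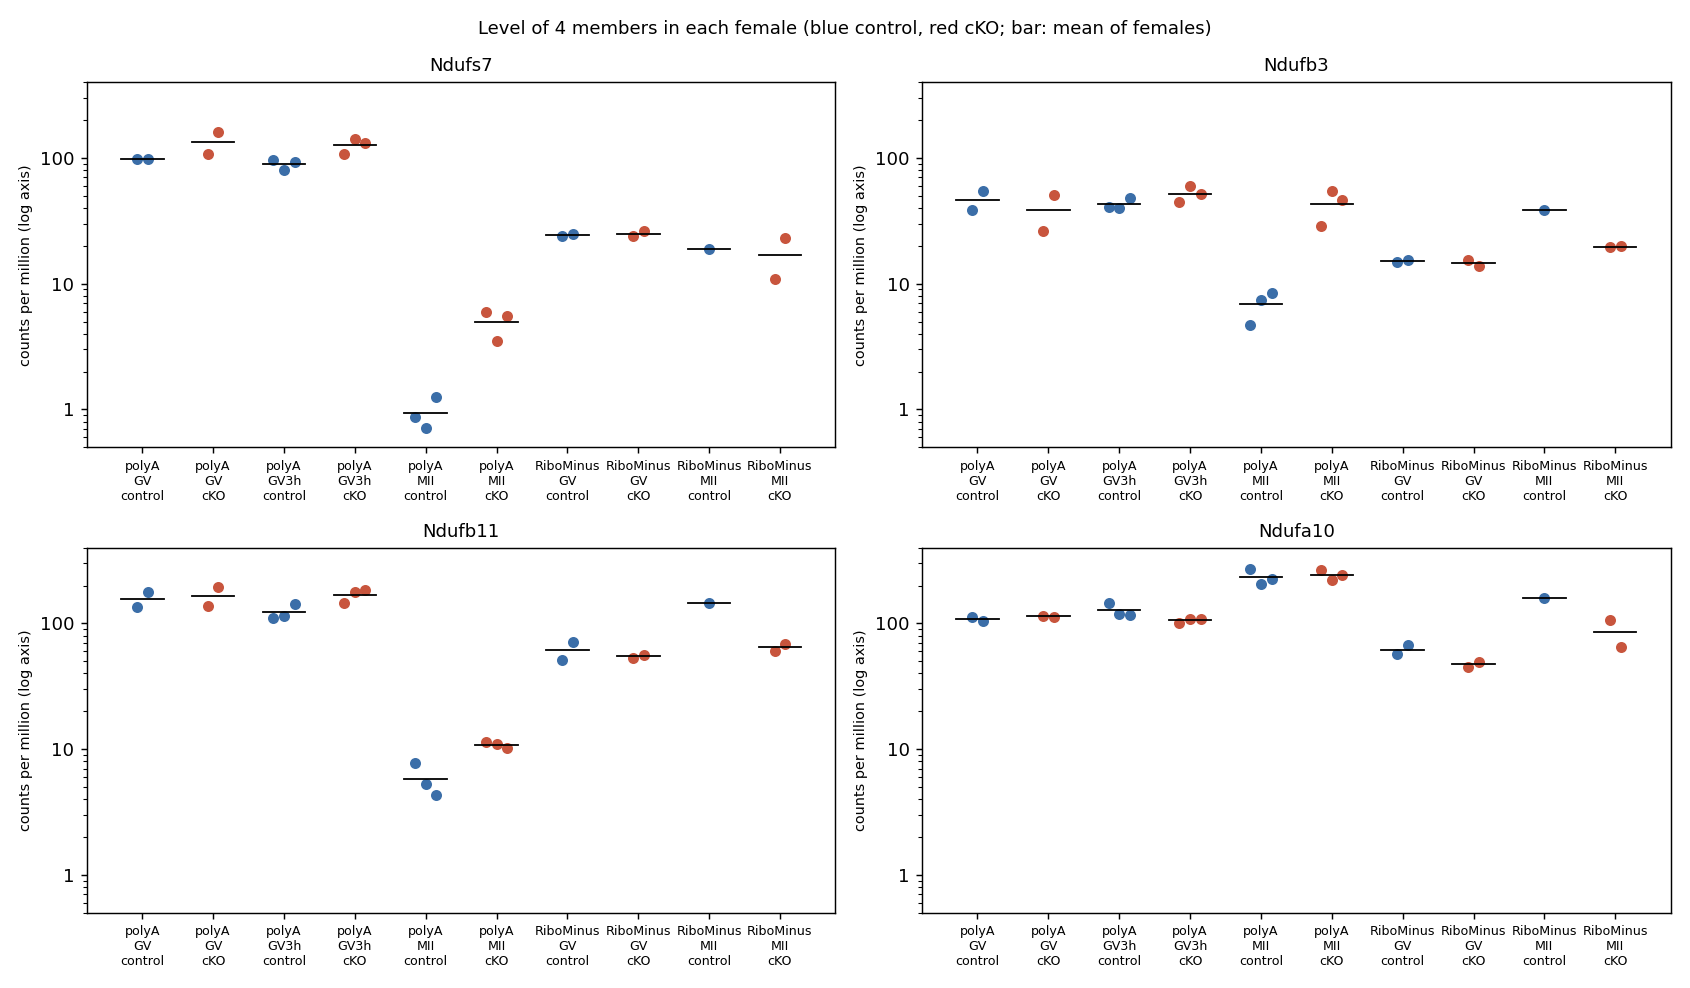
Level of Ndufs7, Ndufb3, Ndufb11 and Ndufa10 in each female (TMM-scaled CPM of the summed counts of her oocytes, log axis) in the 10 groups. Each point is 1 female and bars are means over females. Ndufs7 was at 0.707 to 1.25 CPM in polyA MII controls and at 10.9 to 26.3 CPM in the RiboMinus females, and Ndufa10 was above 200 CPM in every polyA MII female.

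Other respiratory chain genes of the nucleus moved the same way in polyA controls, while mitochondrial genes did not. From GV to MII, 8 of 9 complex III genes, 9 of 10 complex IV genes, 14 of 15 complex V genes, 3 of 4 complex II genes and 12 of 15 tested assembly factors of complex I fell. Sdha (0.78 ± 0.16), Cox8a (0.66 ± 0.19) and Atp5b (0.95 ± 0.15) rose, each in a complex whose other called genes fell. The 5 mitochondrially encoded complex I subunits that could be tested all rose, with a median of 2.32 in controls and 1.96 in cKO oocytes. mt-Nd2 rose by 2.57 ± 0.23 in controls. With the stage, the share of counts from mitochondrial genes went from 0.238% to 0.417% in polyA GV controls to 0.721% to 1.24% in MII controls, and reads outside genes went from 9.88% to 11.2% to 5.90% to 6.68%. Of the 10 oocyte markers, 5 fell and 2 rose in controls (median -1.33), and 5 fell and 5 rose in cKO oocytes (median -0.28). Of the 11 granulosa and cumulus markers tested, 2 fell and 1 rose in controls (median -1.39), and 4 fell and 1 rose in cKO oocytes (median -1.69). The part of these values in the members' fall was not tested. With library totals in place of TMM scaling the median of all genes moved from -0.26 to -0.69 in controls and that of the members from -3.50 to -3.93.

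Between GV and GV3h no member was called in polyA libraries of either genotype (0 of 36 higher and 0 lower, where 0% of genes were called in either direction). The members' median was -0.27 in controls and 0.11 in cKO oocytes, where it was -0.07 without the GV female V857. At an unadjusted p under 0.05, edgeR's test passed 2 members and 425 genes of 19242 in controls, and 0 members and 373 genes in cKO oocytes. DESeq2's Wald test also called 0 members in both. It called 0.0624% of genes higher and 0.0312% lower in controls, and 0.0468% and 0.0416% in cKO oocytes.

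No fall was called in RiboMinus libraries. From GV to MII, 0 of 36 members were called in control RiboMinus libraries, where 0.00787% of 25425 genes rose and 0% fell, and the members' median was 0.76 against -0.16 over all genes. In cKO oocytes 0 members were called, where 0.61% of genes rose and 1.71% fell, with a median of -0.24. At an unadjusted p under 0.05, edgeR's test passed 14 members and 3834 genes in controls and 1 member and 5166 genes in cKO oocytes. In controls 28 of 36 fitted changes were positive. This contrast rests on 1 MII control female and 3 residual degrees of freedom, and its count moved with the method. A fit of only the groups compared called 17 members higher and 3 lower, where 14% of all genes were higher and 13.9% lower. DESeq2 called 9 higher and 2 lower, where 2.54% of genes were higher and 3.82% lower. In cKO oocytes, leaving out the MII female V1167 gave 1 member higher and 6 lower, where 2.88% of genes were higher and 4.73% lower, and a median of -0.77. Without V1166 no member was called and the median was 0.15, so its sign rests on that female.

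The difference between the library types was itself tested. In controls the GV to MII change was lower in polyA than in RiboMinus libraries for 32 of 36 members and higher for 0, where 11.9% of 24777 genes were lower and 10.9% higher. The median difference was -3.94 for the members and 0.00 for all genes. In cKO oocytes it was lower for 25 members and higher for 0, where 9.17% of genes were lower and 11.6% higher, with medians of -2.08 and -0.24. Of the 10 oocyte markers, 7 were lower and 2 higher in controls (median -1.65), and 2 were lower and 5 higher in cKO oocytes (median 0.54), and their part was not tested. The polyA and RiboMinus libraries came from different females, so library type and female cannot be told apart. Of these calls, 29 of the 32 in controls and 21 of the 25 in cKO oocytes were made in every fit without 1 female that could be run. The RiboMinus MII control female, V1145, is alone in her group and could not be left out, so these fits do not bear on her part in the 32 calls, and her spread is assumed to be that of the other groups.

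Ndufa7 had the widest gap between the library types. It went from 6.01 and 8.28 CPM at GV to 19.8 CPM at MII in RiboMinus control females, while its polyA level fell to 1.12 CPM or less. The difference of the changes was -7.77 ± 0.64 in controls (adjusted p = 2.67e-08) and -4.50 ± 0.55 in cKO oocytes. In cKO females Ndufa7 was at 63.1 and 85.7 CPM at GV and 2.16, 5.60 and 2.82 CPM at MII in polyA libraries, and at 8.34 and 8.29 against 6.50 and 13.4 CPM in RiboMinus libraries. Ndufc1, a small subunit of the membrane arm, differed by -7.31 ± 0.78 in controls, and Ndufb7 by -6.45 ± 0.72. RiboMinus levels of Ndufb7 were 21.3 and 26.7 CPM in GV control females and 40.3 CPM in the MII control female. Ndufc1 went from 15.3 and 20.5 CPM at GV to 0.347, 0.250 and 0.665 CPM at MII in polyA control females, on 4, 6 and 8 counts. In RiboMinus control females it was at 2.97 and 3.90 CPM at GV and 13.7 CPM at MII. Its polyA and RiboMinus levels thus lay in opposite order at the 2 stages. In cKO oocytes Ndufb7 (-4.21 ± 0.64) and Ndufs7 (-4.003 ± 0.419) followed. In RiboMinus cKO females Ndufb7 went from 17.9 and 13.2 CPM at GV to 6.57 and 15.9 CPM at MII, and Ndufs7 from 23.8 and 26.3 to 10.9 and 23.2 CPM. The GV and MII values of Ndufb7 overlapped there, and for Ndufs7 both MII females were under the GV females. For Ndufs7, RiboMinus levels were 24.01 and 24.97 CPM in GV control females and 18.9 CPM in the MII control female. Those 3 values lie close together beside the polyA levels, which fitted as 108-fold lower at MII.

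The 4 members not called in controls were Ndufa10, Ndufs1, Ndufb4 and Ndufb6. Ndufa10 differed by -0.10 ± 0.31 between library types, and Ndufs1 by -0.17 ± 0.73. Ndufb4 differs from both, since its level was low in MII libraries of either type: 0.953, 0.707 and 0.499 CPM in polyA MII control females, and 0.246 CPM in the RiboMinus MII control female after 2.46 and 2.53 CPM at GV.

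**Figure D3:**
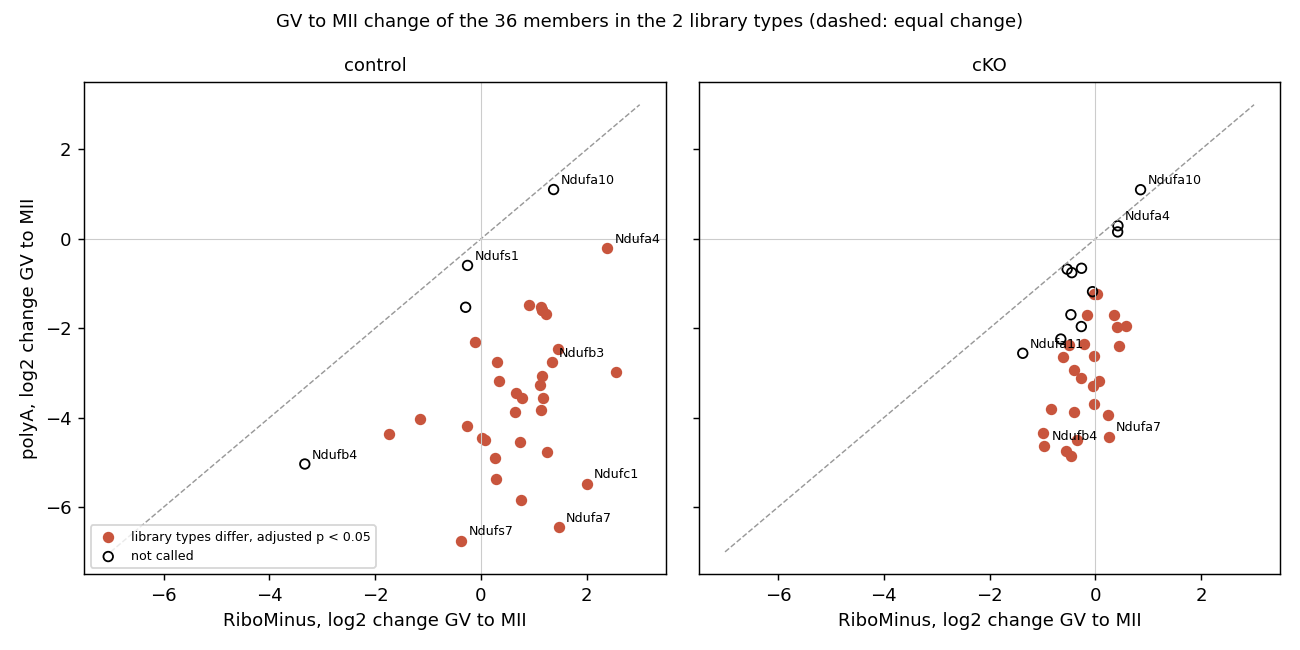
Fitted log2 change from GV to MII of the 36 members in RiboMinus libraries (horizontal) and polyA libraries (vertical), for controls and cKO oocytes; filled red points are members whose change differed between library types at an adjusted p under 0.05, open points were not called, and the dashed line marks equal change. In controls 32 members were called, all of them under the line, and Ndufa10 and Ndufs1 lie near it.

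Between genotypes, members were called at GV3h and MII in the polyA libraries and not at GV. At GV, 0 of 36 members were called higher or lower, where 3.47% of genes were higher and 3.91% lower, and the median was 0.01 against 0.08 over all genes, and from -0.21 without V888 to 0.19 without V889. At an unadjusted p under 0.05, edgeR's test passed 1 member and 4591 genes there, and DESeq2 called 1 member, lower, where 7.58% of genes were higher and 6.6% lower. In RiboMinus GV oocytes 0 were called, where 0.0275% of genes were higher and 0.00393% lower, with a median of -0.15 against 0.04, which was 0.04 for the members without V1133. There an unadjusted p under 0.05 in edgeR's test was reached by 1 member and 3727 genes. DESeq2 called 0 members there, where 4.64% of genes were higher and 1.53% lower.

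At GV3h, 5 members were higher and 1 was lower in cKO oocytes, where 12.5% of genes were higher and 12.7% lower. A count of 5 of 36 is near that background. The median was 0.41 against 0.07, and 31 of 36 fitted changes were positive. Ndufa3, a small subunit of the proximal membrane arm, was at 13.2, 11.7 and 14.4 CPM in control females and at 24.8, 30.2 and 39.0 CPM in cKO females. The groups did not overlap, and the rise was 1.25 ± 0.27 (adjusted p = 0.00328). Ndufv3, an accessory subunit of the N module, rose by 0.76 ± 0.26, from 13.2, 14.2 and 18.4 to 24.8, 24.8 and 28.02 CPM. Ndufa5, of the Q module, rose by 0.74 ± 0.20, from 22.1, 23.9 and 23.8 to 33.6, 40.6 and 42.7 CPM. Ndufb8 (0.66 ± 0.23) and Ndufa6 (0.64 ± 0.20) were the others called higher. Ndufv1, the core subunit that binds NADH and FMN, was the member called lower: 177.0, 167.9 and 177.6 CPM in control females against 104.4, 114.3 and 129.6 CPM in cKO females. Without V946, V951, V982, V983 or V993 the count was 3, 1, 2, 2 and 2, where 7.36% to 12.6% of genes were higher and 8.19% to 12.3% lower, and only Ndufa3 was called in all 6 fits without 1 female. With library totals the median of all genes moved to 0.29 and 14 members were called, all higher, where 18.4% of genes were higher and 7.67% lower. Of the 11 granulosa and cumulus markers tested at GV3h, 9 had positive fitted changes and none was called, with a median of 1.84, and their sum was 75.3 to 93.6 CPM in control and 67.8 to 125.2 CPM in cKO oocytes. Of the 10 oocyte markers 2 were called higher and none lower, with a median of -0.07. Their part in the members' values was not tested.

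At MII, 18 members were higher and 1 was lower in polyA cKO eggs, where 11.9% of genes were higher and 6.99% lower. The median was 0.83 against 0.12, and 30 of 36 fitted changes were positive. By module the rises were 7 of 10 in the N module, 4 of 6 in the Q module, 3 of 9 in the proximal and 4 of 10 in the distal membrane arm. Of the 19 calls, 15 were made in each of the 6 fits without 1 female, and the other 4, Ndufb2, Ndufb6 and Ndufv2 among them, were lost in at least 1. A fit of only these 2 groups, in which 35 members passed the filter, called 12 higher and none lower, where 8.94% of genes were higher and 9.32% lower.

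Ndufb3 (chr1:58586384-58595964, plus strand), an accessory subunit of the distal membrane arm, had the largest rise. It was at 4.68, 7.45 and 8.40 CPM in MII control females and at 28.7, 54.4 and 46.1 CPM in MII cKO females. No control egg of 8 was above 9.26 CPM and no cKO egg of 15 was under 18.8 CPM. The rise was 2.65 ± 0.30 (adjusted p = 5.54e-05). Its GV levels were 38.5 and 54.8 CPM in controls and 26.3 and 51.0 CPM in cKO oocytes, so the 3 MII cKO females lay within the range of the GV females.

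Ndufs7 was higher by 2.46 ± 0.27 (adjusted p = 3.97e-05), with the MII values given above for its fall. Ndufa12, which sits at the junction of the N and Q modules, was at 0.867, 0.499 and 0.416 CPM in control and 2.80, 2.69 and 2.82 CPM in cKO females, a rise of 2.24 ± 0.35. Both sets of values lie far under the GV levels of 9.40 to 16.8 CPM. The other rises included those of Ndufa2 (2.22 ± 0.18), Ndufa7 (2.07 ± 0.40), Ndufv3 (1.44 ± 0.31), Ndufa6 (1.29 ± 0.20), Ndufv1 and Ndufv2 in the N module, of Ndufa5 (1.94 ± 0.22) and Ndufa9 in the Q module, of Ndufs5 (2.11 ± 0.30), Ndufa11 and Ndufc2 in the proximal arm, and of Ndufb9, Ndufb11 and Ndufb6 in the distal arm. Ndufa10 and Ndufs1, which stood outside the fall at maturation, changed by 0.06 ± 0.13 and -0.07 ± 0.34 between genotypes at MII, and neither was called.

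Ndufb2 (chr6:39592574-39603382, plus strand), another accessory subunit of the distal membrane arm, was the 1 member called lower at polyA MII. It was at 21.7, 11.9 and 9.06 CPM in control females and at 6.08, 7.39 and 7.41 CPM in cKO females, a change of -1.02 ± 0.28 (adjusted p = 0.0206). The call was lost without V836, the control female with the highest value, and without V841. It was also lost in a fit of only the groups compared and in limma with the female as a random block. Other gene models overlap it on both strands, and the strand setting of the counting is not given in the sources used here, so its reads are less certain than those of Ndufb3 and Ndufs7, which no other gene model overlaps.

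Other respiratory genes also rose in polyA MII cKO eggs: 5 of 9 in complex III, 5 of 10 in complex IV, 6 of 15 in complex V, 1 of 4 in complex II and 4 of 15 tested assembly factors. In complex V, Atp5e was called lower (-1.01 ± 0.29). Cox7c (2.51 ± 0.38), Cox7b (2.46 ± 0.25) and Cyc1 (2.33 ± 0.43) rose by amounts like that of Ndufs7. None of the 5 mitochondrially encoded complex I subunits tested was called. Beside these rises, 6 of the 10 oocyte markers were also higher in cKO eggs, among them Zp2 by 2.03 ± 0.18, and the summed oocyte markers were 21804 to 26901 CPM against 17309 to 21754 CPM in control eggs. The summed granulosa and cumulus markers were 93.3 to 158.9 CPM in cKO and 103.3 to 175.3 CPM in control eggs. Their part in the members' rise was not tested.

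The rise at MII can be set against GV in 1 model. The GV to MII change of the polyA libraries was higher in cKO than in control oocytes for 10 members and lower for 0, where 1.59% of genes were higher and 0.353% lower, with medians of 0.83 and 0.10. Ndufb3 differed most: its control change was -2.77 ± 0.32 and its cKO change 0.15 ± 0.31, a difference of 2.92 ± 0.46 (adjusted p = 0.00664). Ndufa2 differed by 2.53 ± 0.27 and Ndufs5, on the intermembrane-space face of the membrane arm, by 2.40 ± 0.45. Ndufa2 was at 170.6 and 214.8 CPM in GV control females and at 6.93, 6.53 and 5.82 CPM in MII control females, and at 141.5 and 168.7 against 31.6, 25.5 and 32.7 CPM in cKO females. Ndufs5 was at 12.999 and 15.6 CPM at GV and 2.17, 1.79 and 1.16 CPM at MII in control females, and at 9.48 and 13.9 against 6.64, 6.20 and 9.27 CPM in cKO females. For both genes the MII females of the genotypes did not overlap. The members called in this test were spread over the N module (3), Q module (3), proximal arm (2) and distal arm (2). In the same test 3 of the 10 oocyte markers were called higher and none lower, 9 were positive and their median was 0.79, and none of the 11 granulosa and cumulus markers was called (median 0.52). Their part in the members' difference was not tested. The count of members was 3 without the GV female V857, 2 without the GV female V889 and 1, Ndufa2, in a fit of only these 4 groups, where 0.518%, 0.274% and 0.0722% of all genes were higher. Ndufb3 and Ndufa2 were called in all 10 fits without 1 female, but Ndufb3 was not called in the fit of only these 4 groups.

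**Figure D4:**
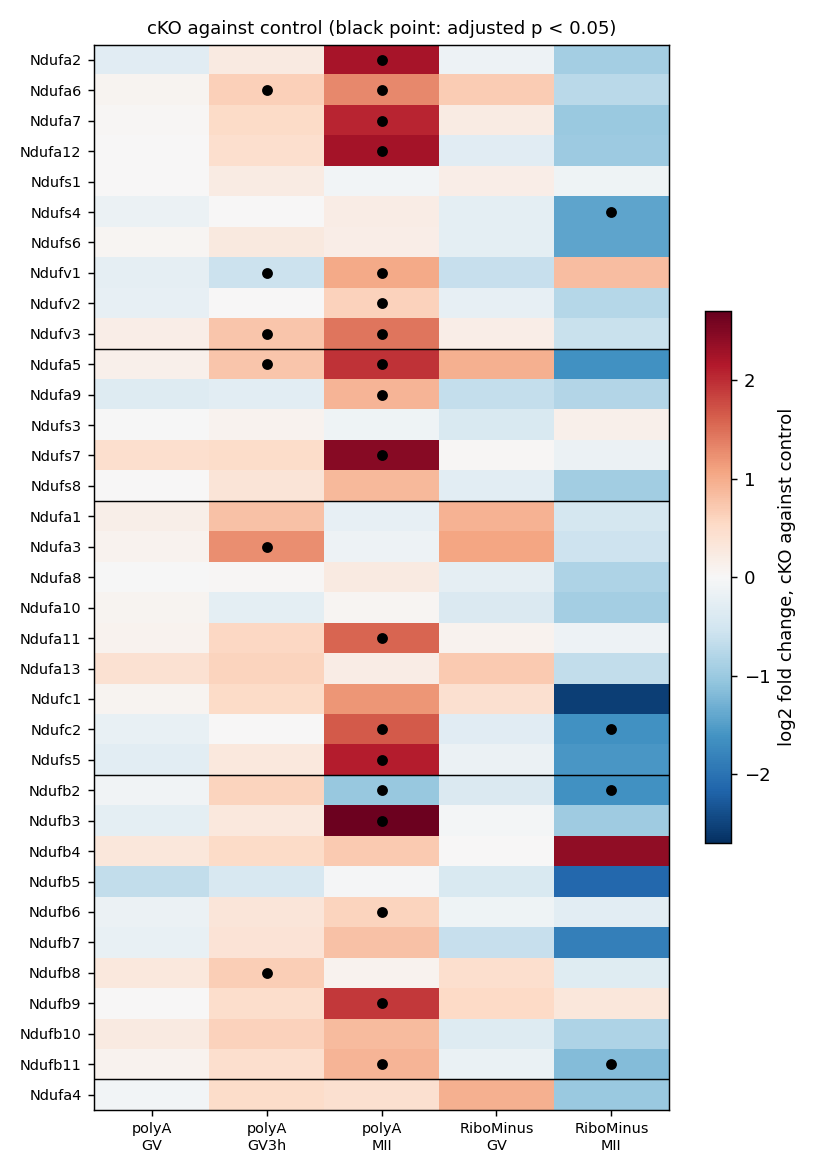
Fitted log2 fold change of cKO against control for 35 of the 36 members (rows, grouped by module: N, Q, proximal membrane arm, distal membrane arm, and Ndufa4) in the 5 genotype comparisons (columns); red is higher and blue lower in cKO, and black points mark an adjusted p under 0.05. In the polyA MII column most rows of the N module are called higher and Ndufb2 is called lower, and in the RiboMinus MII column 4 are called lower and none higher.

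In RiboMinus eggs the called members were lower in cKO. In RiboMinus MII eggs 4 members were lower in cKO and 0 were higher, where 3.69% of genes were lower and 3.61% higher, and 32 of 36 fitted changes were negative. The median was -0.83 against 0.25 over all genes, and it was -0.42 without V1166 and -1.37 without V1167. Ndufb2 was at 22.4 CPM in the control female and at 7.61 and 6.78 CPM in the cKO females, a change of -1.64 ± 0.41 (adjusted p = 0.0476). Ndufc2, of the membrane arm, was at 54.9 CPM against 15.6 and 19.8 CPM, a change of -1.63 ± 0.35 (adjusted p = 0.0336). Ndufs4, an N-module subunit that joins late in assembly, was at 64.4 CPM against 21.2 and 26.5 CPM (-1.43 ± 0.32). Ndufb11 was at 145.6 CPM against 60.9 and 68.4 CPM (-1.17 ± 0.29). A fit of only the groups compared did not call Ndufb2, Ndufs4 or Ndufb11. DESeq2 size factors lost the calls of Ndufb2 and Ndufb11, and limma with the female as a random block lost that of Ndufb2.

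These cKO females were close to the RiboMinus GV females, and the control egg female stood above both. Ndufb11, for example, was at 51.6 and 71.4 CPM in GV controls and 53.4 and 55.9 CPM in GV cKO oocytes. The controls are 1 female, so her own level and the genotype cannot be told apart. Of the other eggs, those of V1166 had the lower member share. Without V1166 the count was 1 member, lower, and none of the 4 was called. Without V1167 it was 14 members, all lower, where 7.63% of genes were lower and 7.54% higher. Library totals moved the median of all genes from 0.25 to 0.45 and that of the members from -0.83 to -0.60. No member was called with them, where 4.55% of genes were higher and 2.35% lower. The summed granulosa and cumulus markers were 152.8 to 169.2 CPM in control and 75.1 to 113.8 CPM in cKO eggs, though 7 of their 12 fitted changes were positive and 1 gene was called, lower. Of the 10 oocyte markers 3 were called lower and 0 higher, and their sum was 11352 to 12357 CPM in control and 7130.3 to 10178 CPM in cKO eggs. Reads outside genes were 11.2% to 12% in control and 8.43% to 9.56% in cKO eggs. The part of these values in the members' difference was not tested.

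Ndufb11 and Ndufc2 were called in opposite directions by library type at MII. Ndufb11 was higher in polyA cKO eggs (7.80, 5.24 and 4.32 CPM in control females against 11.4, 11.05 and 10.2 CPM, 0.91 ± 0.22) and lower in RiboMinus cKO eggs. Ndufc2 was at 7.45, 6.61 and 4.74 CPM in polyA MII control females and at 20.7, 18.3 and 20.4 CPM in cKO females (1.66 ± 0.22). The groups did not overlap for either gene. The polyA call of Ndufb11 was lost in a fit of only the groups compared and in limma with the female as a random block. Its RiboMinus call was lost in a fit of only the groups compared, with DESeq2 size factors and with library totals. Library totals also lost the RiboMinus call of Ndufc2. Ndufv1 was called lower at GV3h (-0.58 ± 0.18) and higher at MII (1.02 ± 0.20) in polyA cKO libraries. At MII it was at 9.71, 6.70 and 8.56 CPM in control females and at 13.5, 13.9 and 22.1 CPM in cKO females, which did not overlap. The GV3h call was lost without V946, V951, V982, V983 or V995 and with library totals. The difference of the genotype effect between library types, or between GV3h and MII, was not tested. Ndufb11 is overlapped by Rbm10 on the opposite strand and Ndufc2 by Gm16053 on its own strand, as 18 of the 36 members are by another gene model, so the counts of both genes are less certain.

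Promoters are shown for the member with the largest called rise and the member with the largest called fall between genotypes, Ndufb3 and Ndufb2. RefSeq windows on GRCm38.p6 matched 32 of the 36 members by symbol, with 34 windows, and 4 motifs were searched on both strands in the 250 bases before the annotated start. The NRF1 palindrome was found in 7 of the 34 member windows (20.6%) and in 3.74% of all 32851 windows. CCAAT was found in 29.4% of member windows and 33.8% of all, the GC box GGGCGG in 38.2% and 32.7%, and AAGGTCA, bound by estrogen-related receptors, in 8.82% and 4.08%. The member genes with the NRF1 letters were Ndufa5, Ndufa8, Ndufa11, Ndufb4, Ndufs5 and Ndufs6. Capitals in the Ndufb3 window mark CCAAT on the opposite strand, and in the Ndufb2 window AAGGTCA and then CCAAT. The Ndufb3 window was cut at the start of the GENCODE gene.
Ndufb3 (chr1:58586147-58586383, plus strand): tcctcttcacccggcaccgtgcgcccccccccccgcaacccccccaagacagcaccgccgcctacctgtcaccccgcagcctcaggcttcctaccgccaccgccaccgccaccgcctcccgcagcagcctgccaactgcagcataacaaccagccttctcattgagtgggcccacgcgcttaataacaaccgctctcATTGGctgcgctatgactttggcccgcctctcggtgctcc
Ndufb2 (chr6:39592315-39592564, plus strand): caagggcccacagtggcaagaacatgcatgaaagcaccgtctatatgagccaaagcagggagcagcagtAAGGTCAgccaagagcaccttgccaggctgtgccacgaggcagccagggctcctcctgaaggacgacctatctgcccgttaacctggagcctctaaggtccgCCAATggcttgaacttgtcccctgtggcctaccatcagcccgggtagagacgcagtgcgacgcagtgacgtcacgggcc

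The length of the 3′ untranslated region and the GV to MII change in polyA controls had a Spearman correlation of 0.28 over the 36 members, which share the same libraries, and of 0.23 over the 14561 genes. These are descriptions with no test. Genes with the cytoplasmic polyadenylation element had a median change of 0.63 in polyA controls over all 2141 such genes, against -0.30 for the 8628 genes with a hexamer and without the element. The 2 members with the element, Ndufs4 and Ndufc2, changed by -1.59 ± 0.22 and -3.57 ± 0.24, and the 25 members with a hexamer and without it had a median of -3.26. Both lie among the falling members and not with Ndufa10, which has no such element in the window searched.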

How the data were processed

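Single oocytes and eggs of control and Exosc10 cKO females were sequenced as 64 polyA and 22 RiboMinus libraries, and 22 rRNA libraries were not used. The deposited values are raw counts of reads per gene for each oocyte. The submitters' processing notes name cutadapt 2.5, FastQC 0.11.8, STAR 2.7.2a, SAMtools 1.9, HTSeq 0.9.1, R 3.5.1, DESeq2 1.24.0 and the build mm10. The annotation release, the strand setting and the handling of duplicate reads are not given in the sources used here. The 5 summary lines per file stayed out of totals and tests. Reads outside genes were 5.85% to 14.2% and ambiguous reads 2.07% to 3.19% of the gene counts and the 5 summary lines together.

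Counts were summed per female and fitted with edgeR 4.0.16 (R 4.3.3) by the quasi-likelihood test, with TMM scaling, filterByExpr and Benjamini-Hochberg adjustment over all genes. All groups of a library type shared 1 fit, with 10 residual degrees of freedom for polyA and 3 for RiboMinus, and both types shared 1 fit with 13 for the comparison of library types. All 36 members passed the filter in each of these fits. CPM levels and fold changes use TMM scaling. Levels per kilobase and shares of gene counts use library totals. The fit was tested on simulated data. The p-values measure the spread between females, and how females were batched is not given in the sources used here. Alternatives were each oocyte as a replicate (edgeR, and limma 3.58.1 with the female as a random block), DESeq2 1.42.0, other scalings and filters, fits of only the groups compared, and leaving out each female.

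The members and lists were chosen with earlier results of these data known. Any member could be named, and values per female are given for the 3 largest called rises and falls of a comparison and for members called in opposite directions. The letters searched in 3′ ends and promoters and the members shown were chosen in the same knowledge. Gene models and 3′ ends are from GENCODE M21 (GRCm38, the same assembly as mm10). Promoter windows are from RefSeq. Values of 1 member are not reported here, though it is counted in every total.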

Additional observations from a re-analysis of the deposited data

Results flagged for a closer look

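Some results differed between groups by a test of the difference itself (edgeR's quasi-likelihood test, Benjamini-Hochberg adjusted over all genes). Between genotypes, the polyA GV to MII change differed for 10 members, all higher in cKO (1.59% of all genes were), with the largest differences, cKO minus control, in Ndufb3 (2.92), Ndufa2 (2.53) and Ndufs5 (2.40). That count was 1 in a fit of only these 4 groups, which lost Ndufb3 and Ndufs5, and 2 or 3 without V889 or V857, which lost Ndufs5. In that test 3 of the 10 oocyte markers were also higher, with a median of 0.79, and their part was not tested. Between library types, the GV to MII change differed for 32 members in controls, all lower in polyA (11.9% of all genes were), with the largest differences, polyA minus RiboMinus, in Ndufa7 (-7.77), Ndufc1 (-7.31) and Ndufb7 (-6.45). In cKO oocytes it differed for 25 members, all lower in polyA (9.17% of all genes were), led by Ndufa7 (-4.50), Ndufb7 (-4.21) and Ndufs7 (-4.003).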

How the results depend on the processing

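No member called as reported changed sign under any setting run. The median of the members did in comparisons with no call: polyA GV genotype (0.01) gave -0.11 without V856, -0.21 without V888 and -0.001 with only the groups compared, RiboMinus GV genotype (-0.15) gave 0.04 without V1133, the polyA cKO change to GV3h (0.11) gave -0.07 without V857, and the RiboMinus cKO stage change (-0.24) gave 0.15 without V1166. No paired analysis was possible because each female gave oocytes to 1 group only. Counts of members called moved by over 1.5 times as follows, with members higher and lower and the percentages of all genes higher and lower where the split is not given with the comparison itself. Only the groups compared: 18 at polyA GV3h (6 as reported; 15 and 3, 20.9% and 18.7%), 12 at polyA MII (19), 20 for the RiboMinus control stage change (0) and 1 for the polyA genotype difference (10). Each oocyte in edgeR: 3 at polyA GV (0; 2 and 1, 20.2% and 15.5%), 15 at GV3h (14 and 1, 24.1% and 19.9%), 5 at RiboMinus GV (0; 3 and 2, 15.7% and 10.1%), 15 at RiboMinus MII (4; 1 and 14, 19.7% and 15%), 15 for the RiboMinus control (13 and 2, 9.24% and 10.2%) and 3 for the cKO stage change (0; 2 and 1, 10.5% and 12%), and 19 for the genotype difference (18 and 1, 10.3% and 6.62%). The female as a random block in voom: 2 at polyA GV (1 and 1, 9.37% and 10.8%), 15 at GV3h (14 and 1, 16.8% and 16.6%), 14 at RiboMinus MII (all lower, 11.5% and 13.3%), 11 for the RiboMinus control (10 and 1, 4.37% and 2.63%) and 4 for the cKO stage change (2 and 2, 9.06% and 10.8%). DESeq2's Wald test: 1 at polyA GV, 10 at RiboMinus MII (1 and 9, 13% and 7.91%), and 11 and 1 (higher, 5.32% and 6.42%) for the RiboMinus stage changes. RiboMinus MII had 2 with DESeq2 size factors (lower, 3.73% and 3.24%), 0 with library totals and 8 without the filter (all lower, 6.39% and 5.51%), which gave 5 (4 and 1, 1.34% and 1.75%) and 2 (1 and 1, 3.18% and 4.34%) for the RiboMinus stage changes. Library totals gave 14 at GV3h. Leaving out 1 female gave 1 to 4 at GV3h, 1 to 14 at RiboMinus MII, 0 to 7 for the RiboMinus cKO stage change and 2 to 13 for the genotype difference, the 13 without V888 all higher (3.72% and 2.31%). The cause was not tested. Genes called at RiboMinus GV were 8 as reported and 4922 with each oocyte as a replicate, and at polyA GV 1420, 5798, and 1 with only the groups compared. RiboMinus MII controls were 1 female and could not be left out.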
